A study of Mus musculus with 4 samples.

Results

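The genes Ccl2, Ccl7, Ccl8, Ccl11 and Ccl12 encode the monocyte chemoattractant group of mouse CC chemokines. These 5 genes were taken by symbol from the 55536 Ensembl genes of the deposited tables. They were measured by polyA RNA-seq in 4 libraries of bone-marrow-derived macrophages, which are macrophages grown in culture from the marrow of C57BL/6J mice. All 4 libraries form 1 group: per the sample descriptions the cells received Lipid A at 100 ng/mL for 12 h, were then kept 12 h without it, and were given 100 ng/mL again for 60 min. Lipid A is the TLR4-binding portion of bacterial lipopolysaccharide. Other label fields speak of lipoprotein A and do not mention the interval without it, so the labels conflict on both points. The libraries are labelled biological replicates, share 1 donor record, and come from cells whose donor's age and sex were not collected. Nothing further in the labels shows separate cultures or animals, so the p-values below measure the spread between these libraries, which may be technical. Untreated and once-treated cells were not analysed here, so the levels are not measures of a response to Lipid A.

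CC chemokines are small secreted proteins that carry adjacent cysteines near their start and bind receptors with 7 membrane passes on leukocytes. The products of Ccl2, Ccl7 and Ccl12 bind Ccr2, the receptor by which monocytes leave the bone marrow and enter inflamed tissue. The product of Ccl8 acts in the mouse through Ccr8, and that of Ccl11, eotaxin, draws eosinophils through Ccr3. Macrophages stimulated through TLR4 are a known source of several of these proteins, and NF-kB is a known activator of their genes. The genes arose by duplication and lie side by side.

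All 5 genes lay on the plus strand of chromosome 11 in the mm10 assembly within 81.2 kb. Their order was Ccl2 (ENSMUSG00000035385.5, chr11:82035571-82037453), Ccl7 (ENSMUSG00000035373.2, chr11:82045712-82047525), Ccl11 (ENSMUSG00000020676.2, chr11:82057823-82062955), Ccl12 (ENSMUSG00000035352.3, chr11:82101845-82103400) and Ccl8 (ENSMUSG00000009185.2, chr11:82115185-82116799). The gaps between neighbours were 8.26 kb from Ccl2 to Ccl7, 10.3 kb to Ccl11, 38.9 kb to Ccl12 and 11.8 kb to Ccl8. Each gene has 3 exons, and the paired cysteine codons that give the family its name lie in exon 2. The coding stretch around that pair is shown for each gene because it is the family's shared signature and also shows how far the copies have drifted apart. Each stretch holds 30 coding bases before and after the pair, joins the end of exon 1 to exon 2, and has the cysteine codons in capitals.
Ccl2: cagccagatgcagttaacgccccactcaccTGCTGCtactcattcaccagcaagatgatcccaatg
Ccl7: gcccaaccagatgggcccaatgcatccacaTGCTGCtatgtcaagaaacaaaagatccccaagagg
Ccl11: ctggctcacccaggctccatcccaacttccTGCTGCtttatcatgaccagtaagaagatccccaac
Ccl12: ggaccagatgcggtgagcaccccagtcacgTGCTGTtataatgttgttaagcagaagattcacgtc
Ccl8: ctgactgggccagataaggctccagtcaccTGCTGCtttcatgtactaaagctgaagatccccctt
The pair sits at codons 34 and 35 of 148 in Ccl2, 33 and 34 of 97 in Ccl7, 33 and 34 of 104 in Ccl12, and 32 and 33 of 97 in both Ccl8 and Ccl11. Coding sequences were aligned with no penalty for gaps at the ends, and identity was taken over the aligned bases only. Over those bases the 10 pairs of genes were 60.5% to 71.0% identical. The lowest identity was between Ccl2 and Ccl8 (294 aligned bases, where Ccl2 has 447 coding bases) and the highest between Ccl8 and Ccl12. Reads could still be assigned to single genes: of the 31-base stretches in the annotated transcripts none of Ccl2 (1138 stretches), Ccl7 (771), Ccl8 (481) or Ccl12 (534) occurred in any other gene. Of the 1052 stretches of Ccl11, 1 also occurred in Hnrnpll. The estimated counts of all 5 genes were whole numbers in 4 of 4 libraries in both quantifications (tolerance 0.1).

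Total counts on genes ranged from 23167140 to 41453162 per library. The 8 macrophage markers (among them Adgre1, Csf1r and Cd68) were all at 1 TPM or more in every library, with summed levels of 16689, 17162, 17619 and 19742 TPM in replicates 1 to 4. TPM is transcript abundance scaled for length and to the same sum in each library. None of the 8 passed the test of variation between libraries. Of 10 stroma and fibroblast markers none reached 1 TPM in all 4 libraries, and their summed level was 0.15 to 4.76 TPM. Eosinophil markers (5 genes, 3 of them at 0 throughout, including Epx) summed to 0.23 to 0.58 TPM, and mast cell and basophil markers (6 genes, 3 at 0) to 0.10 to 0.55 TPM. T cell and B cell markers (4 genes each) summed to at most 1.01 and 0.30 TPM. Neutrophil markers (8 genes, Ly6g at 0) summed to 133, 13.1, 106 and 12.7 TPM, mostly from S100a8 and S100a9, and endothelial markers (5 genes, Tek at 0) to 11.5, 29.5, 9.33 and 16.4 TPM. Of these, 2 neutrophil and 3 endothelial markers had enough counts for the test of variation. It called both neutrophil markers, S100a8 (edgeR adjusted p 4.96e-06) and S100a9 (4.76e-11), and the endothelial marker Kdr (2.28e-09), against 2.61% of all tested genes.

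Ccl2, the best known monocyte attractant, had 2951, 1528, 931 and 605 TPM in replicates 1, 2, 3 and 4. Its paralog Ccl7 had 3097, 1718, 1210 and 601 TPM. Ccl12, which is found in the mouse and has no direct human counterpart, had 1427, 605, 488 and 297 TPM. In these 3 genes replicate 1 was the highest, replicate 2 next, and replicate 4 the lowest. Ccl8 ran otherwise: it had 485, 629, 847 and 573 TPM, with its lowest value in replicate 1 and its highest in replicate 3. Ccl11 was listed at 0 in all 4 libraries. In a bulk sample fewer expressing cells and less RNA per cell cannot be told apart.

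**Figure D1:**
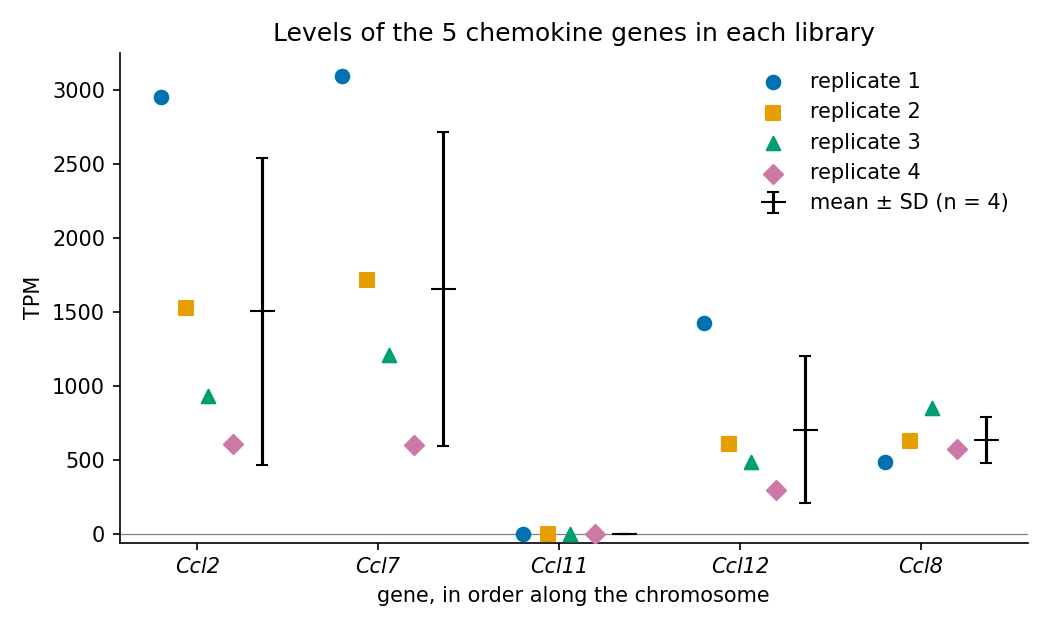
TPM of the 5 chemokine genes (vertical axis) in the order in which they lie along the chromosome (horizontal axis); each symbol is 1 library and the bar is the mean ± SD of 4. Replicate 1 is the highest for Ccl2, Ccl7 and Ccl12 (2951, 3097 and 1427 TPM) and the lowest for Ccl8 (485 TPM), and Ccl11 is at 0.

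The mean levels were 1656 ± 1063 TPM for Ccl7, 1504 ± 1038 for Ccl2, 704 ± 498 for Ccl12 and 634 ± 154 for Ccl8 (SD, n = 4). Among protein-coding genes ranked by TPM, Ccl7 stood at place 27, 52, 80 and 214 in replicates 1 to 4 and Ccl2 at place 29, 66, 101 and 213. Ccl12 stood between place 66 in replicate 1 and place 475 in replicate 4, and Ccl8 at place 254, 184, 116 and 229. All 4 were thus abundant messages in every library, although their places shifted. The counts behind these levels were 8074 to 29296 for Ccl2, 7754 to 30041 for Ccl7, 1910 to 7118 for Ccl12 and 2215 to 5975 for Ccl8. Counting error was small against these differences: the lowest count of Ccl12, 1910, has an exact 95% Poisson interval of 1825 to 1998, and that of Ccl8, 2215, one of 2124 to 2309. Such intervals cover counting error only, since PCR copies of a fragment are not independent molecules.

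The eotaxin gene Ccl11 had no count in the first quantification. Where 0 is counted, as many as 3 counts remain possible by a one-sided 95% limit (the two-sided exact interval used above reaches 4); in CPM, counts scaled to the library's total, that limit was 0.113, 0.129, 0.0724 and 0.0858 in replicates 1 to 4. The second quantification, made by the authors directly from the reads, gave Ccl11 1, 1, 2 and 1 estimated counts, or 0.0379, 0.0387, 0.0724 and 0.0409 TPM. Both quantifications thus put Ccl11 close to 0, and they differed on whether any read belonged to Ccl11. Its neighbours on either side, Ccl7 and Ccl12, had at least 601 and 297 TPM in the same libraries.

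Within 100 kb on either side of the cluster the annotation holds 10 genes, the 5 chemokine genes and 5 others. The others were close to silent. Gm31522 and Gm11419, noncoding RNA genes upstream of Ccl2, had 4 counts and 1 count over all libraries, and Asic2, Gm17268 and the chemokine gene Ccl1 had none. Gm17268 runs on the opposite strand across the whole of Ccl2, but its exons cover 0 bases of the exons of Ccl2.

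**Figure D2:**
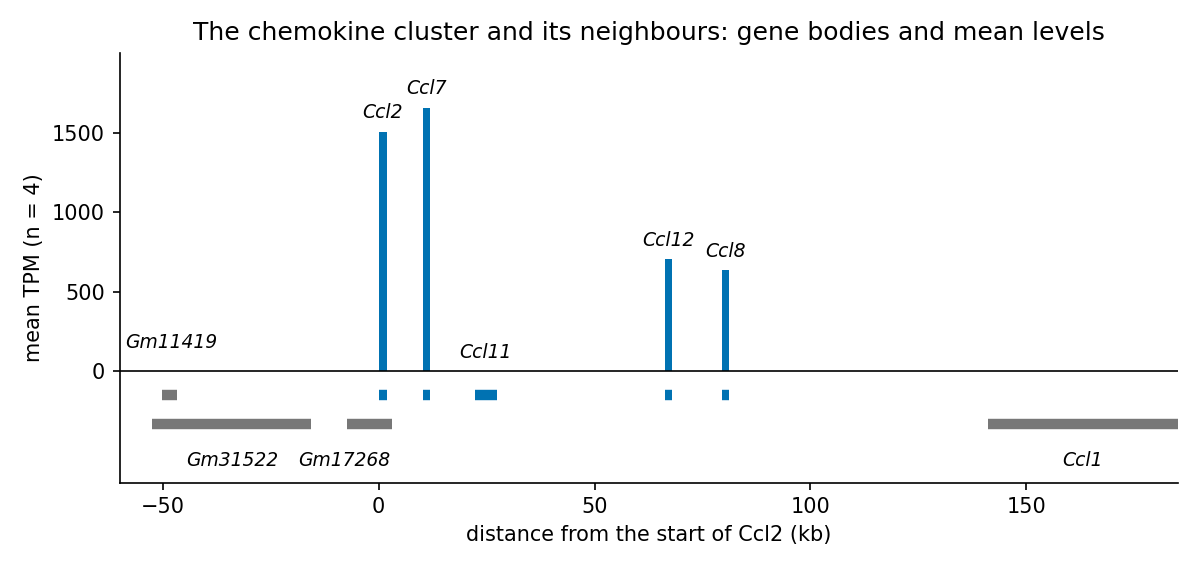
Mean TPM over 4 libraries (bars, vertical axis) and gene bodies (blocks under the axis, upper row plus strand, lower row minus strand) against the distance in kb from the start of Ccl2; chemokine cluster genes in blue, others in grey, Asic2 lying outside the drawn range and Ccl1 reaching beyond its right edge. Ccl11 is at 0 between Ccl7 (1656 TPM) and Ccl12 (704 TPM), and the grey genes have bars too low to see.

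By mean TPM the order was Ccl7, Ccl2, Ccl12, Ccl8 and Ccl11, and neighbours in it were compared within libraries. Ccl7 exceeded Ccl2 by 0.15 ± 0.17 on the log2(TPM + 0.1) scale (SD, n = 4), with single values of 0.07, 0.17, 0.38 and -0.01 in replicates 1 to 4. An exact two-sided sign-flip permutation test over the 4 libraries gave p = 0.25, where 4 libraries allow no p under 0.125; the mean difference was smaller than its SD, and its sign turned in replicate 4. Ccl2 exceeded Ccl12 in 4 of 4 libraries, by 1.05, 1.34, 0.93 and 1.03. That difference of 1.09 ± 0.17 had p = 0.125 in the same exact permutation test, the smallest that can be had. Ccl12 and Ccl8 had no fixed order: the difference was 1.56 in replicate 1 and -0.06, -0.80 and -0.95 in the others, with a mean of -0.06 ± 1.15 (p = 0.875, exact permutation test). Ccl12 is therefore ahead of Ccl8 by mean TPM and behind it by mean log2 level. Leaving out replicate 3 or replicate 4 turns the latter sign, to 0.18 and 0.24.

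Expressed as ratios of TPM, Ccl7 and Ccl12 kept a nearly fixed proportion to Ccl2. The ratio of Ccl7 to Ccl2 was 1.05, 1.12, 1.30 and 0.994 in replicates 1 to 4 (1.12 ± 0.133, SD, n = 4). The ratio of Ccl12 to Ccl2 was 0.484, 0.396, 0.524 and 0.490 (0.474 ± 0.0545). The ratio of Ccl8 to Ccl2, by contrast, was 0.164, 0.412, 0.910 and 0.947. Its coefficient of variation over libraries was 63.1%, against 11.9% and 11.5% for the other ratios. Of the summed level of the cluster, Ccl8 made up 6.09%, 14.0%, 24.4% and 27.6%. The sum itself was 7959, 4481, 3476 and 2076 TPM, or 0.796%, 0.448%, 0.348% and 0.208% of all TPM.

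The spread between replicate libraries was tested against that of genes of like abundance. In an edgeR fit of all 11679 genes with enough counts, 2.61% of genes varied between libraries beyond the trend (deviance test, Benjamini-Hochberg adjusted p up to 0.05). Of the 4 chemokine genes that could be tested, 3 did: Ccl12 (edgeR adjusted p 4.79e-08), Ccl2 (6.61e-06) and Ccl7 (1.44e-05). Ccl8 did not (adjusted p 0.999989, unadjusted p 0.42), and Ccl11 had too few counts. Whether Ccl8 varied less than the other 3 was not itself tested. Normalised CPM is still a relative measure, but it is scaled to lessen the effect of other genes' share of the library. On that scale Ccl2 had 1235, 555, 337 and 227, Ccl7 1266, 606, 425 and 218, and Ccl12 299.9, 109.7, 85.5 and 53.6. Ccl8 had 93.3, 104.5, 135.5 and 94.1 normalised CPM, so its replicates 1 and 4 were level on this scale. The highest library stood over the lowest by 5.45 times for Ccl2, 5.82 times for Ccl7, 5.59 times for Ccl12 and 1.45 times for Ccl8. Over the 3390 tested genes with a mean of at least 50 CPM the median of that ratio was 1.34. A larger ratio than that of Ccl2 was found in 11 of these genes, than that of Ccl12 in 9 and than that of Ccl7 in 7, but in 1184 for Ccl8.

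The coefficient of variation of normalised CPM was 76.9% for Ccl2, 72.2% for Ccl7, 80.8% for Ccl12 and 18.5% for Ccl8, with a median of 74.5% over these 4 and of 15.8% over all tested genes. Replicate 1 carried much of this, and without it the mean level of Ccl12 was 463 TPM. Without it Ccl7 alone was called (edgeR adjusted p 0.0278), while Ccl2 had 0.0909 and Ccl12 0.243, and the genes called among all those tested fell from 305 to 135. Without replicate 2, 3 or 4 all 3 remained called, among 212, 204 and 219 genes called in all. Ribosomal RNA genes took 7.29% of TPM in replicate 1 and 2.88%, 1.51% and 2.91% in replicates 2 to 4, and mitochondrial genes 1.94%, 2.79%, 4.77% and 3.99%. The neutrophil marker sum given above was high in replicates 1 and 3. The part of these measures in the differences between libraries was not tested. When TPM was rescaled to nuclear protein-coding genes, Ccl2 still had 3368, 1691, 1054 and 683 and Ccl8 553, 697, 959 and 646.

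**Figure D3:**
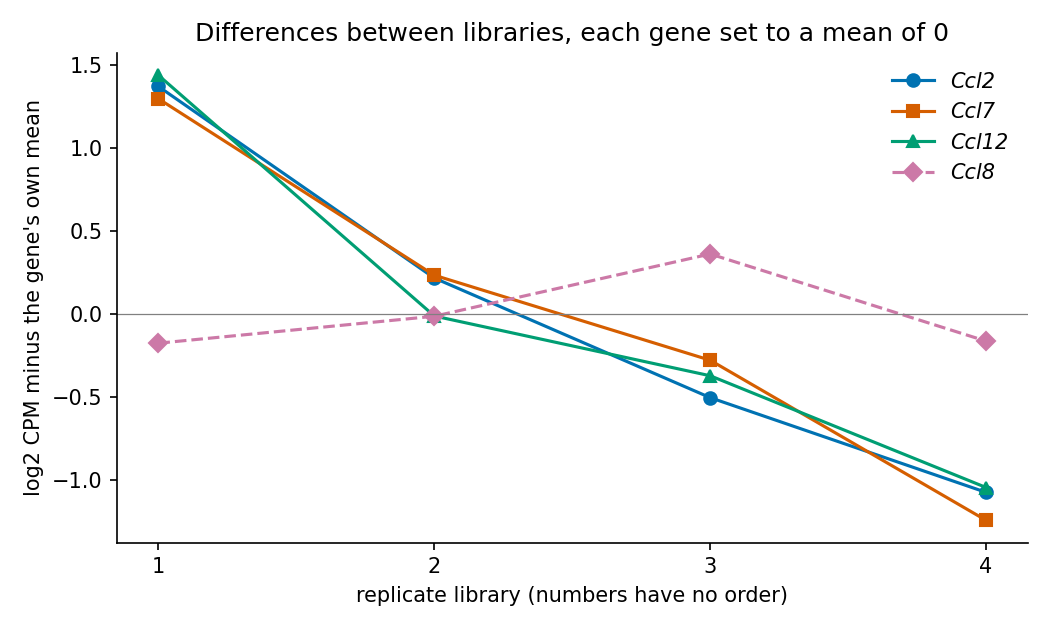
Log2 normalised CPM of each chemokine gene minus the gene's own mean over libraries (vertical axis) in the 4 replicate libraries (horizontal axis; the numbers have no order and lines only join the points of 1 gene). Ccl2, Ccl7 and Ccl12 lie together, from between 1.29 and 1.44 in replicate 1 to between -1.25 and -1.05 in replicate 4, and Ccl8 stays between -0.18 and 0.36.

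The libraries also differ in the number of read files deposited with them, 6 for replicates 1 and 2 and 4 for replicates 3 and 4. Levels of 3 chemokine genes, Ccl2, Ccl7 and Ccl12, did not overlap between these pairs and were lower with 4 files, as were 14.3% of the 11679 tested genes (37.8% did not overlap, counting both directions). Mean levels were 2239 TPM with 6 files and 768 with 4 for Ccl2, 2407 and 906 for Ccl7, 1016 and 392 for Ccl12, and 557 and 710 for Ccl8, whose libraries overlapped. In edgeR's quasi-likelihood test the difference, 4 files minus 6, was -1.67 (log2) for Ccl2, -1.54 for Ccl7, -1.56 for Ccl12 and 0.22 for Ccl8. Without replicate 1 the first 3 came to -0.99, -0.93 and -0.67. None was called (adjusted p 0.644 for Ccl2, Ccl7 and Ccl12, and 0.854 for Ccl8), and neither was any other gene (0% of 11679, with 838 at an unadjusted p under 0.05). DESeq2 called 88 genes, 74 of them (0.634% of those tested) lower with 4 files, among which were Ccl2 (adjusted p 0.00380), Ccl7 (0.0266) and Ccl12 (0.0496). Within each pair the 3 genes also differed, replicate 1 being above replicate 2 and replicate 3 above replicate 4. With 2 libraries a side, differences that go with the read files and those between single libraries cannot be told apart.

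The profile of each gene over the 4 libraries was set against those of 7591 tested genes with a mean of at least 10 CPM. Distance was the root mean square difference of log2 normalised CPM after each gene's own mean was taken away, a description over 4 libraries with no test. From Ccl2 the nearest genes were Fpr1 at 0.10, a receptor for formylated bacterial peptides with 328, 150, 86.4 and 57.1 TPM, Il23r at 0.12, a subunit of the receptor for interleukin-23, and Klra2 at 0.14, of the Ly49 receptor family. Ccl12 was the fourth nearest gene to Ccl2 (0.14) and Ccl7 the sixth (0.15), whereas Ccl8 was at place 5547 (1.00), beyond the median distance of 0.93. From Ccl7 the nearest were Ccl2 (0.15), Ccl12 (0.18) and Klra2 (0.19). From Ccl12 they were Flrt2 (0.01), which encodes a membrane protein with leucine-rich repeats, Klra2 (0.02) and Pdpn (0.12), the gene of the glycoprotein podoplanin. Leaving out single libraries put Ccl7 at places 2 to 22 and Ccl12 at places 3 to 23 from Ccl2, and Ccl8 at places 3196 to 6949. The nearest of these places for Ccl8, at a distance of 0.53, came without replicate 1.

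Ccl8 had a different set of nearest genes: Eif3j1 (0.01), which encodes a subunit of a translation initiation factor, Clec4a3 (0.02), a C-type lectin with 351, 433, 602 and 401 TPM, and Gm14326 (0.03). Seen from Ccl8, the genes Ccl7, Ccl12 and Ccl2 were at places 7539, 7544 and 7546 of 7591, close to the far end. Distance grows with how far a gene moves, and Ccl2, Ccl7 and Ccl12 moved more than most genes. Their places therefore do not show that Ccl8 has an opposed profile. Most genes moved little between libraries, so the median distance from Ccl8 was 0.27. Eif3j1 has a near-identical copy in the mouse genome and Klra2 belongs to a multigene family, so their counts depend on how shared reads were placed.

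Ccl2 and Ccl12 each have 2 annotated transcripts, while Ccl7, Ccl8 and Ccl11 have 1. The spliced coding transcript Ccl2-201 had 2943, 1507, 919 and 592 TPM in replicates 1 to 4. The other, Ccl2-202, is annotated as keeping an intron: it retains intron 2 (325 bases, chr11:82036601-82036925) and has intron 1 (745 bases) removed. Ccl2-202 had 7.73, 20.8, 12.5 and 13.3 TPM, on 116, 269.9, 302 and 268 estimated counts. It made up 0.26%, 1.36%, 1.34% and 2.19% of Ccl2, with the lowest share in replicate 1, where the gene was highest, and the highest in replicate 4, where it was lowest. The spliced form thus ranged over 4.97 times between libraries and the intron-keeping form over 2.69 times, in another order of libraries. The second quantification gave shares of 0.339%, 1.67%, 1.63% and 2.69% in the same order.

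**Figure D4:**
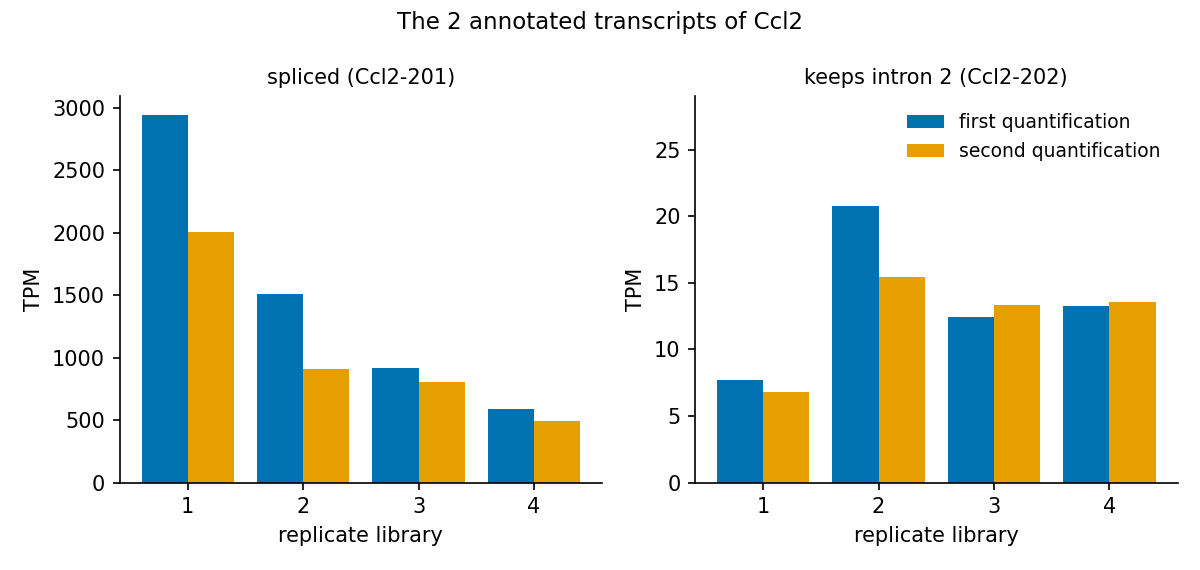
TPM (vertical axes, of different height) of the spliced transcript of Ccl2, left, and of the transcript that keeps intron 2, right, in the 4 replicate libraries (horizontal axis); blue bars are the first quantification and orange bars the second. The spliced form is highest in replicate 1 (2943 TPM) while the form with the intron is lowest there (7.73 TPM).

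For Ccl12 the second transcript, Ccl12-202, is annotated as processed and noncoding. It had 52.3, 19.4, 16.8 and 7.42 TPM and made up 3.66%, 3.20%, 3.44% and 2.50% of the gene. Unlike the intron-keeping form of Ccl2, its level followed that of the coding transcript, Ccl12-201, which had 1375, 586, 471 and 289 TPM.

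The 2 quantifications were compared because paralogs can lose or gain reads by the way a program places them. The second gave lower TPM for all 4 expressed members: the log2 difference, second minus first, was -0.43 ± 0.15 (SE) for Ccl2, -0.37 ± 0.15 for Ccl7, -0.43 ± 0.15 for Ccl12 and -0.49 ± 0.14 for Ccl8. Over all 11661 genes compared the median difference was -0.30, and the test below was against 0, not against that median. Estimated counts were higher in the second for all 4 genes in every library, as with 35655 against 29296 for Ccl2 in replicate 1. The lower TPM thus does not show that these genes lost reads. In limma, with an adjusted p up to 0.05 and a difference of at least 2-fold, 8.6% of genes were called and none of these 4, whose differences all lay under 2-fold. By adjusted p alone 3 passed, Ccl8 (0.0171), Ccl12 (0.0402) and Ccl2 (0.0426), beside 11.3% of all genes that were lower in the second by that rule, and Ccl7 had 0.0713. Mean levels in the second were 1227 ± 691 TPM for Ccl7, 1063 ± 657 for Ccl2, 510 ± 339 for Ccl12 and 459 ± 151 for Ccl8 (SD, n = 4), in the same order as in the first.

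Upstream sequence is shown for neighbours whose profiles over libraries differed. RefSeq's promoter table for GRCm38.p6, the assembly that mm10 names, holds 2 of the 5 genes, Ccl12 and Ccl8, which were the pair with the most alike coding sequences and with unlike profiles. Promoters of Ccl2, Ccl7 and Ccl11 were not analysed here. The 250 bases before the start are shown 5′ to 3′ on the plus strand, with a TATA box in capitals, for Ccl12 (chr11:82101595-82101844) and Ccl8 (chr11:82114935-82115184).
Ccl12: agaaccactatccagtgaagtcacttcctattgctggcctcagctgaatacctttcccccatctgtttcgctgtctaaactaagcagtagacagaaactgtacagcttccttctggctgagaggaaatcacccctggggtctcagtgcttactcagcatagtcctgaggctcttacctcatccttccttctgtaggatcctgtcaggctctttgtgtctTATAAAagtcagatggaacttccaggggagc
Ccl8: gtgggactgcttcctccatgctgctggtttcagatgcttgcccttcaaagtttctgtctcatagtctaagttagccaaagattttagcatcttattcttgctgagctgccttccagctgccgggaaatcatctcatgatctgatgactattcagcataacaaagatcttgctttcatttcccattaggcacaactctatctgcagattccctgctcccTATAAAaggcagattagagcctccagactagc
TATAAA begins 31 bases before the start of Ccl12 and 32 bases before that of Ccl8. These letters were found on either strand in 13.6% of the 32851 promoters of 300 bases (250 before to 50 after the start) in the table. The same windows of Ccl12 and Ccl8 held 0 matches on both strands to the other motifs searched. These were NF-kB (GGG, any 2 bases, TT, any base, CC, in 4.79% of all promoters), AP-1 (TGANTCA, 7.81%), the GC box (GGGCGG, 35.7%), IRF (GAAA, any 2 bases, GAAA, 3.44%), STAT (TTCNNNGAA, 8.30%) and C/EBP (TTGCNNAA, 10.8%). The absence of a match says only that those letters are not in that window.

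Messages for 9 receptors of these chemokines or of related chemoattractants were measured in the same libraries. Of the 5 receptors with enough counts, 2 varied between libraries by the edgeR deviance test (2.61% of all genes). Ccr2, the main receptor of Ccl2, Ccl7 and Ccl12, was low, with 7.78, 3.17, 5.92 and 2.96 TPM (adjusted p 0.0750). Ccr1, which binds Ccl7 among others, had 35.9, 11.9, 18.3 and 11.5 TPM (4.63e-05). Ccr3, the receptor of eotaxin, had 17.3 TPM in replicate 1 and 1.33, 2.14 and 0.72 in the others (7.42e-22), while Ccl11 was at 0 and the eosinophil markers stood as given above. Ccr2 had estimated counts that were not whole, as arises where reads are divided among genes.

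Ccrl2, which binds chemoattractants without classical signalling, was the most abundant of the 9, with 464, 491, 289 and 658 TPM (adjusted p 0.628). Ccr8, the receptor of mouse Ccl8, had no count in any library, and the scavenging receptors Ackr1 and Ackr2 had 1 count each, both in replicate 3. Ackr4, another scavenging receptor, had 2, 1, 1 and 0 counts. At counts this low, absence and a very low level cannot be told apart.

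**Figure D5:**
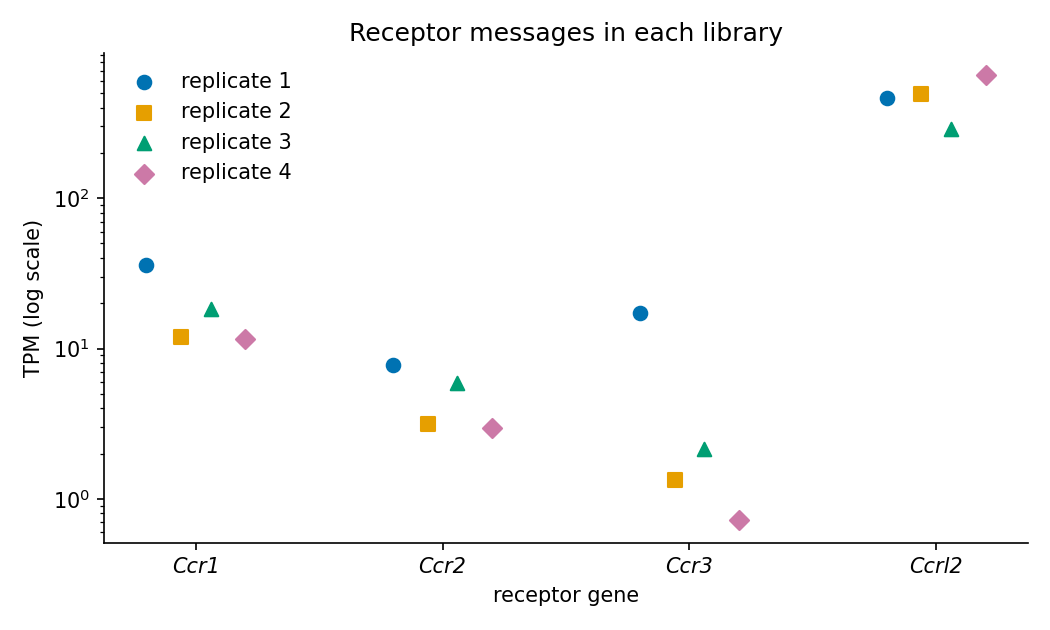
TPM on a log scale (vertical axis) of 4 receptor genes (horizontal axis), 1 symbol per library. Replicate 1 is the highest for Ccr1, Ccr2 and Ccr3 and stands apart for Ccr3 (17.3 TPM against 0.72 to 2.14), and Ccrl2 (289 to 658 TPM) is above the other receptors drawn in every library.

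Of 15 other CC chemokine genes listed, 14 were measured under a single identifier, and 8 reached 1 TPM in all libraries. Among those 8, against 2.61% of all tested genes, 2 varied between libraries by the same edgeR test: Ccl4 (4350, 2415, 1022 and 1491 TPM, adjusted p 4.10e-05) and Ccl3 (3739, 1965, 1299 and 1793 TPM, 0.0140), which encode macrophage inflammatory proteins. Both were highest in replicate 1, as Ccl2 was, but lowest in replicate 3 and not in replicate 4. Ccl5 was the most abundant, with 20642, 24383, 15773 and 19315 TPM, and was not called. The 5 cluster genes took 21.002%, 13.195%, 15.498% and 8.065% of the summed TPM of the 19 CC chemokine genes listed and measured here, and Ccl5 took 54.5%, 71.8%, 70.3% and 75.0%.

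Transcription factors known to act on these or other inflammatory chemokine genes were all present at 1 TPM or more in every library (18 of 18), and 1 of them varied. That was Fos, with 69.58, 56.39, 50.03 and 127.85 TPM (edgeR adjusted p 0.0169), highest in replicate 4, where Ccl2, Ccl7 and Ccl12 were lowest. Among the most abundant were Irf1 (671 ± 112 TPM, SD, n = 4) and Junb (613 ± 198). Of 8 factors that control mRNA decay or stability, a known point of control for chemokine messages, 8 were present and none varied by that test, which had called 2.61% of all genes and 910 at an unadjusted p under 0.05. They were led by Zfp36, the decay factor tristetraprolin, with 959 ± 332 TPM, Hnrnpd with 146 ± 27.2 and Zfp36l1 with 121 ± 17.6.

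Of 11 genes for proteins that trim chemokines or hold them at the cell surface, 9 were present in all libraries. Of the 11, 2 varied, against 2.61% of all tested genes. Mmp13, a collagenase, had 145, 21.7, 20.0 and 15.4 TPM (edgeR adjusted p 1.87e-24), and Mmp9, a gelatinase, had 1.21, 0.61, 0.68 and 0.19 (0.0169). By TPM, replicate 1 was the highest and replicate 4 the lowest in both, as for Ccl2, Ccl7 and Ccl12. Mmp9 was low, however, and rested on 59, 9, 39 and 13 counts in replicates 1 to 4, with the fewest in replicate 2. Mmp14 (261 ± 22.5 TPM) and the surface proteoglycans Sdc3 (588 ± 38.1) and Sdc4 (441 ± 125) were the most abundant of this list and did not pass the test.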

How the data were processed

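Gene and transcript tables for 4 polyA RNA-seq libraries were used. Per the file headers the authors' first quantification gives an expected count per gene or transcript, not normalised, and deposited TPM values scaled to the same sum per library. What part of its gene a transcript makes up is deposited as a percent. A second quantification holds the authors' estimated counts and TPM. The deposited records name mm10 and GENCODE M21, and derive the first from transcriptome alignments and the second from the reads. The programs are not given in the sources used here.

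Expected counts were rounded. Variation was tested with edgeR 4.0.16 in R 4.3.3 (TMM, filterByExpr, deviance from the dispersion trend with 3 degrees of freedom), the split by read files with edgeR's quasi-likelihood test and DESeq2 1.42.0, and the quantifications with limma 3.58.1 on log2(TPM + 0.1) for genes with a mean of at least 1 TPM. Adjustment was by Benjamini-Hochberg over all genes tested. Log2 CPM used a prior count of 0.5. The exact permutation tests used Python 3.11.15 with numpy 2.4.6, and the Poisson intervals used scipy 1.17.1. The fits were tried on simulated data with planted changes. A minimum number found was required for the variation and quantification fits, but not for the split by read files. Motifs and 31-base stretches were matched exactly. Coding sequences were aligned globally with no penalty for gaps at the ends.

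The members and gene lists were chosen with earlier results of these data known. Named genes are the 5 members, their receptors and related ones, in each other list the genes called variable and the 3 most abundant, and the 3 genes nearest to each tested member. Ccl19, with 2 identifiers, was left out, and some genes that this rule names are not reported here. Alternatives were another normalisation, no filter, DESeq2, the second quantification, rescaled TPM, other pseudocounts and leaving out each library.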

Additional observations from a re-analysis of the deposited data

Results flagged for a closer look

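In 8 of 58 genes examined, 1 library stood apart from the other 3: the gap to its nearest neighbour exceeded Dixon's 95% critical share of the whole range. For normally distributed values chance does this in about 1 in 20 groups. TPM need not be so distributed, and all 8 genes stood apart on the high side. That rate also does not hold for genes near 0, where 1 count against none always stands apart, as for Ackr1 and Ackr2. In replicate 1 these were the eotaxin receptor Ccr3 (17.3 TPM against 0.72 to 2.14), the collagenase Mmp13 (144.86 against 15.41 to 21.67), the eosinophil marker Siglecf (0.39 against 0.09 to 0.14) and the T cell markers Cd3e (0.23 against 0 to 0.03) and Trac (0.41 against 0 to 0.05). In replicate 3 they were the scavenging receptors Ackr1 (0.04 TPM) and Ackr2 (0.01), each on 1 count and at 0 elsewhere, and the fibroblast marker Col1a2 (1.49 against 0 to 0.11). None of the 5 chemokine genes was among them: Ccl2, Ccl7 and Ccl12 were highest in replicate 1, but with replicate 2 between it and the rest.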

How the results depend on the processing

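Leaving out each replicate in turn, 1 to 3 chemokine genes varied between libraries, 1 without replicate 1 and 3 otherwise. Over all genes 135 of 12092, 212 of 11906, 204 of 11623 and 219 of 11650 were called without replicates 1, 2, 3 and 4. With the other settings (another normalisation, no filter, DESeq2's dispersion trend, the second quantification) 3 did. Those settings called 314 of 11679, 318 of 21041, 335 of 11679 and 331 of 12631 genes, in that order. For the split by read files the count was 0, but 3 with DESeq2, and the difference of Ccl8 ranged from -0.0708 (without replicate 3, a turned sign) to 0.43 with a replicate left out. Over all genes that split gave 0 calls, 35 with no filter and 12 without replicate 2. Between quantifications the count of chemokine genes was 0, and 3 by adjusted p alone; over all genes it was 1003, against 2103 by adjusted p alone and 2082 with no filter. The level of Ccl8 was 459 TPM and that of Ccl11 0.0475 TPM in the second quantification. The difference between Ccl12 and Ccl8 ranged from -0.60 to 0.24 with a replicate left out, and turned to 0.18 and 0.24 without replicates 3 and 4. The level of Ccl12 fell to 463 TPM without replicate 1. It and the remaining levels stayed within 1 SD, which replicate 1 itself widens, and all other differences between neighbours kept their sign. The causes were not tested. No paired analysis was possible because there is 1 group. The design has no control samples, and 4 libraries cannot give a sign-flip p under 0.125. Ccl11, Ccr8 and the scavenging receptors are limited by depth.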
